A study of Mus musculus with 7 samples.

Results

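The 9 genes described here encode receptors and bridging molecules of efferocytosis, the uptake of dying cells by phagocytes. They are the receptors Axl, Mertk, Lrp1, Stab1 and Timd4, the secreted bridging molecules Gas6, Pros1 and Mfge8, and Tgm2, a cross-linking enzyme. They were picked by symbol from the 16047 genes of the deposited table, and all 9 are in it. Their transcripts were measured by 3′ RNA-seq in neutrophils sorted from livers of C57BL/6 mice 24 h into acetaminophen-induced liver injury (AILI). All mice received acetaminophen. PBS neutrophils came from 4 mice injected with PBS (replicates 5 to 8), and MC-21 neutrophils from 3 mice injected with 400 µL of conditioned medium with MC-21, an antibody against CCR2, at 29 µg/mL (replicates 2 to 4), which the labels call deficient for infiltrating Ly6Chi monocytes. Injections began 12 h before acetaminophen and were repeated every 24 h. The controls received plain PBS and not a control antibody or conditioned medium. The study's methods give young adult males. In each liver, 50000 cells were sorted by the gate CD11b+ Ly6Clo CX3CR1-GFP- Ly6G+, so a library is 1 liver. The gate names a CX3CR1-GFP reporter, while the labels give the strain as C57BL/6 alone. The comparison asks what the neutrophils of the injured liver express of this clearance machinery when the monocytes are missing.

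A dying cell exposes phosphatidylserine, a lipid that healthy cells keep on the inner side of their membrane. Phagocytes bind it directly, through receptors such as Tim-4 (Timd4) and stabilin-1 (Stab1), or through soluble bridges. Gas6 and protein S (Pros1) link phosphatidylserine to the TAM receptor tyrosine kinases Tyro3, Axl and Mer, and MFG-E8 (Mfge8) links it to αv integrins. In the liver, Kupffer cells and macrophages descended from monocytes are the main users of this machinery, sinusoidal endothelial cells carry stabilins, and neutrophils are above all the cells that are cleared.

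In PBS neutrophils the 9 transcripts ranged from near 0 to among the most abundant of the table. Axl and Lrp1 were lower in MC-21 neutrophils, by 4.99-fold and 4.02-fold in mean RPKM, and were the members with an adjusted p under 0.05. Gas6 was lower and Tgm2 higher in every MC-21 library than in any PBS library, without passing the adjusted test. Stab1, Mfge8 and Pros1 overlapped between the groups, and Mertk and Timd4 were at the level of a few reads.

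The promoters of the 3 members whose MC-21 libraries all lay below the PBS libraries are shown here, since they moved in the same direction. They are RefSeq sequences of the GRCm38.p6 assembly, each 300 bases long and reaching from before the gene's start to just after it, all 3 on the minus strand and written 5′ to 3′. Capitals mark the GC box GGGCGG on either strand (CCGCCC when read on the other).
Axl, chr7:25788684-25788983: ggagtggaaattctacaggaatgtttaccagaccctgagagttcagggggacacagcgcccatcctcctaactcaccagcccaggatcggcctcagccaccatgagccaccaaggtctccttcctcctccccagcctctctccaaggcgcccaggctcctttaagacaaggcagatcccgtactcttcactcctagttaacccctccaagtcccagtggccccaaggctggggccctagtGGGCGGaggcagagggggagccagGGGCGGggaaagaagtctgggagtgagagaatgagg
Lrp1, chr10:127621099-127621398: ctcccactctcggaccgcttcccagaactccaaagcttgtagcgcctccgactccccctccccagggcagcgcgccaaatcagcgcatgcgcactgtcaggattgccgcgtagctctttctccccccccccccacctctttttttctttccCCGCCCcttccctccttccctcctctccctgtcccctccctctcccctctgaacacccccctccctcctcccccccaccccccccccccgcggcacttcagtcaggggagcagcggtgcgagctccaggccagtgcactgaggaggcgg
Gas6, chr8:13494486-13494785: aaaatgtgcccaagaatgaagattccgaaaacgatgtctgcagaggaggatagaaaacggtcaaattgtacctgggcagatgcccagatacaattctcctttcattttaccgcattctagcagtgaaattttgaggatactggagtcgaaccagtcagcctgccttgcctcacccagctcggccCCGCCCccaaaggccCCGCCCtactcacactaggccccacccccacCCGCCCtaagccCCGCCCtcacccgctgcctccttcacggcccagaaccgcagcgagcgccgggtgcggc
The Axl window holds 2 GC boxes, that of Lrp1 holds 1 and that of Gas6 holds 4. The same window holds 4 GC boxes in Mertk, 4 in Mfge8, 5 in Pros1 and 0 in Stab1 and Timd4, so the motif does not separate the members that were lower from those that overlapped. Of 32851 mouse promoters of the same length, 35.7% hold a GC box. None of the 8 members' windows holds TGANTCA (AP-1, 7.81% of promoters), TTGCNNAA (C/EBP type, 10.8%), GAGGAAGT (PU.1 type, 3.20%) or CACGTG (E-box, 7.15%), each searched on both strands. Tgm2 was not among the promoter sequences used here.

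Levels are RPKM, in which a gene's reads are scaled by its transcript length and by the mapped reads of the library. For a transcript 1 kb long, a value of 1 RPKM stood for between 1.59 reads (MC-21 replicate 3, the shallowest library) and 3.96 reads (PBS replicate 8). Differences are MC-21 minus PBS on log2(RPKM + 1), which understates the change of low transcripts, and were tested with limma for the 9594 genes whose mean reached 1 RPKM, with Benjamini-Hochberg adjustment over all of them. The adjusted p was under 0.05 for 60 genes. The median difference over all genes was -0.15, so values near it are no departure from the bulk of genes, and it became 0.02 with median centring of the libraries. Neutrophil markers summed to 18010 to 30450 RPKM in PBS and 27340 to 40760 RPKM in MC-21 libraries, led by S100a9. Transcripts of liver endothelial cells, which the gate should leave out, were also present in every library (5250 to 8844 RPKM summed over 13 markers in PBS and 5276 to 8293 RPKM in MC-21). In sorted cells measured in bulk, fewer cells of a type and less RNA per cell cannot be told apart.

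Of the 9 members, 7 passed the filter on low values, each with a mean of at least 1 RPKM in either group. By the adjusted p, 2 were lower in MC-21 neutrophils, where 0.427% of all genes tested were lower, and 0 were higher. In either direction, 0.625% of all genes passed. By the study's cutoffs, a p under 0.05 before adjustment together with a 2-fold or larger change, set on the same fit, Axl and Lrp1 were lower, as 1.68% of all genes were, and Tgm2 was higher, as 1.02% were. Gas6 missed the 2-fold cutoff on this scale (-0.97) and reached it with a pseudocount of 0.1 RPKM (-1.05, limma unadjusted p = 0.00122). Groups did not overlap for 3 members lower in MC-21 neutrophils, against 10.2% of all genes, and for 1 higher, against 3.10% of all genes. Lrp1 and Tgm2 are among the genes the study named from these same libraries, so their directions are not independent evidence.

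**Figure D1:**
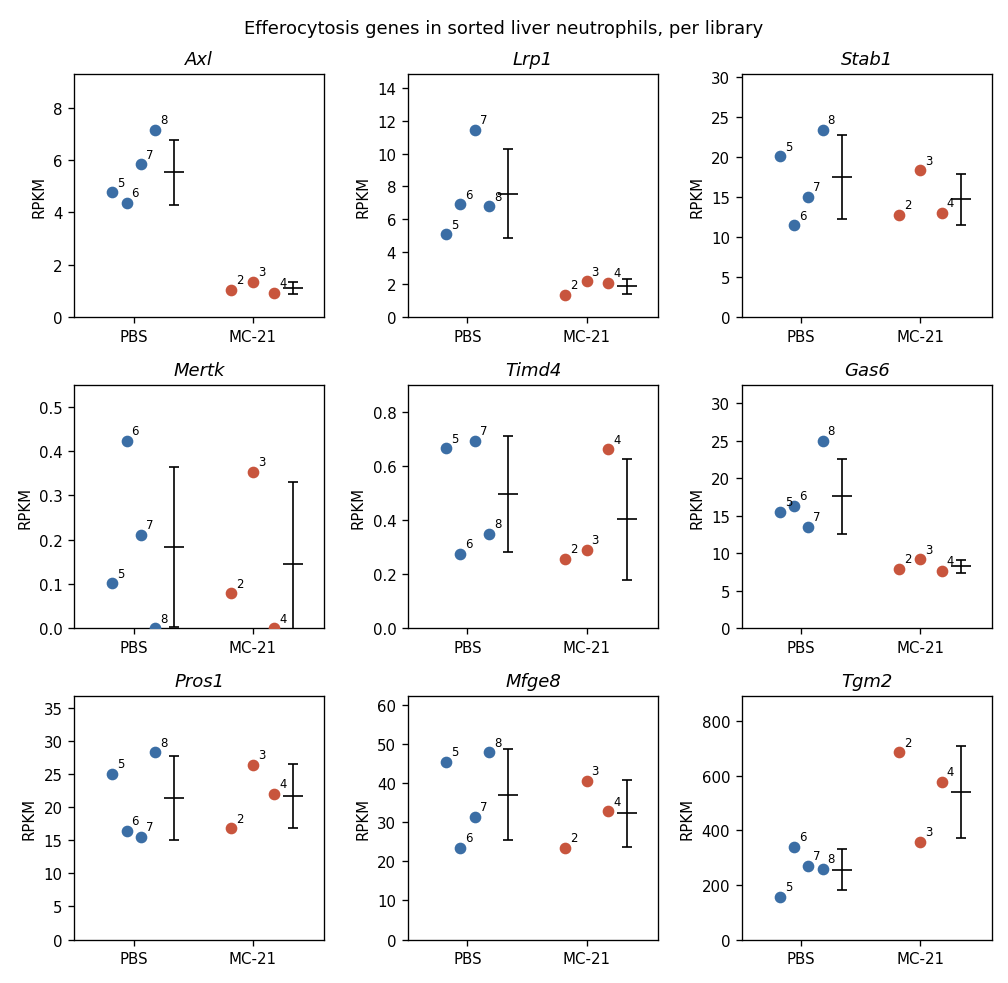
RPKM of each member in each library, with a panel and a linear axis from 0 for each gene. Points are libraries labelled by replicate number (blue PBS, red MC-21), and black marks give the group mean with its SD (n = 4 and n = 3). The groups do not overlap for Axl, Lrp1, Gas6 and Tgm2, and overlap for the other members.

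Axl, the TAM receptor that binds Gas6, lies at chr7:26542292-26573724 on the minus strand (mm9). It was at 4.77, 4.37, 5.84 and 7.15 RPKM in PBS replicates 5 to 8, and at 1.05, 1.36 and 0.919 RPKM in MC-21 replicates 2 to 4. Taking its longest transcript as its length, this was about 56, 62, 66 and 121 reads in the PBS libraries. In the MC-21 libraries it was about 16, 9 and 11 reads, so the low level there rests on few reads. All MC-21 libraries were below all PBS libraries, with a gap wider than the spread within either group. The means were 5.53 ± 1.25 RPKM (SD, n = 4) and 1.11 ± 0.227 RPKM (SD, n = 3). The difference was -1.62 ± 0.21 (SE) on the log2 scale, with an adjusted p of 0.0139 by limma. Axl fell from the 64.3rd to the 42.8th percentile of mean RPKM among all genes of the table. Without MC-21 replicate 2 the adjusted p was 0.0551, without MC-21 replicate 4 it was 0.0633, without PBS replicate 7 it was 0.0564 and without PBS replicate 8 it was 0.0729, with differences of -1.51 or stronger. With median centring the difference was -1.45, with an adjusted p of 0.0184.

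Mertk, the TAM receptor of macrophages, was listed at 0.102, 0.422, 0.212 and 0 RPKM in PBS replicates 5 to 8. In MC-21 replicates 2 to 4 it was at 0.0787, 0.354 and 0 RPKM. The values stand for 1, 5, 2 and 0 reads in PBS and for 1, 2 and 0 reads in MC-21 libraries, taking as its length the 3555 bases that give whole reads in every library. Mertk was at or under 3 reads in 6 of the 7 libraries, and a difference was not detectable at this depth (two-sided exact permutation p = 0.743 over the 35 arrangements of 4 and 3 libraries, which allow no p under 0.0286). Tyro3, the remaining TAM receptor, was between 0.225 and 1.15 RPKM in PBS and between 0.522 and 0.912 RPKM in MC-21 libraries. Axl was the most abundant TAM receptor in each of the 7 libraries.

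Lrp1, an endocytic receptor of the LDL receptor family that takes part in uptake together with calreticulin, lies at chr10:126975217-127058204 on the minus strand. In PBS replicates 5 to 8 it was at 5.05, 6.90, 11.4 and 6.78 RPKM. In MC-21 replicates 2 to 4 it was at 1.35, 2.19 and 2.08 RPKM. PBS replicate 7 was the highest of its group, and the lowest PBS library was still above the highest MC-21 library. These values came to 208, 342, 453 and 400 reads in the PBS libraries and to 72, 52 and 86 reads in the MC-21 libraries, so Lrp1 rests on more reads than its RPKM shows. Its means were 7.54 ± 2.73 RPKM (SD, n = 4) and 1.88 ± 0.455 RPKM (SD, n = 3), a difference of -1.53 ± 0.26 (SE) with an adjusted p of 0.0412 by limma. The adjusted p was above 0.05 when any library but PBS replicate 5 was left out (0.0562 without PBS replicate 6, 0.0651 without PBS replicate 7, 0.129 without PBS replicate 8, and 0.118, 0.0888 and 0.106 without MC-21 replicates 2, 3 and 4), and the difference then lay between -1.62 and -1.34. With median centring the difference was -1.37 and the adjusted p was 0.0541.

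Stab1, a scavenger receptor of sinusoidal endothelium and of some macrophages that binds phosphatidylserine, was at 20.1, 11.5, 15.0 and 23.4 RPKM in PBS replicates 5 to 8. It was at 12.7, 18.3 and 13.05 RPKM in MC-21 replicates 2 to 4. The MC-21 libraries lay inside the range of the PBS libraries. The difference was -0.21 ± 0.25 (SE), close to the median of all genes (adjusted p = 0.739 by limma). Stab2, its relative on sinusoidal endothelium, was between 52.3 and 87.8 RPKM in PBS and between 77.0 and 88.8 RPKM in MC-21 libraries.

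Timd4, which encodes the phosphatidylserine receptor Tim-4 of resident macrophages, was at 0.665, 0.276, 0.692 and 0.348 RPKM in PBS replicates 5 to 8 and at 0.257, 0.289 and 0.661 RPKM in MC-21 replicates 2 to 4. This was 4, 2, 4 and 3 reads in PBS and 2, 1 and 4 reads in MC-21 libraries. The groups overlapped, and no difference was detectable at this depth (two-sided exact permutation p = 0.571). The Kupffer cell markers around it were not uniformly low, since Marco was at 18.8 to 41.1 RPKM and Cd5l at 11.8 to 31.8 RPKM over the 7 libraries, while Vsig4 was at 0 to 2.10 RPKM. Of the 5 markers of that list tested, 0 passed the adjusted test, and their median difference was -0.51 beside -0.15 over all genes. Marco (-0.51) and Cd5l (-0.67) had unadjusted limma p-values of 0.0345 and 0.0275, with overlapping groups. By that measure 11.2% of all genes were lower.

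Gas6, the ligand with the highest affinity for Axl, lies at chr8:13465374-13494535 on the minus strand. It was at 15.5, 16.3, 13.5 and 24.9 RPKM in PBS replicates 5 to 8 and at 7.88, 9.21 and 7.63 RPKM in MC-21 replicates 2 to 4. The MC-21 libraries lay close together and below all PBS libraries, of which PBS replicate 8 was the highest. In reads this was 111, 141, 93 and 256 against 73, 38 and 55. The means were 17.6 ± 5.05 RPKM (SD, n = 4) and 8.24 ± 0.849 RPKM (SD, n = 3), a 2.13-fold lower mean. The difference was -0.97 ± 0.22 (SE), which did not pass the adjusted test (limma unadjusted p = 0.00129, adjusted p = 0.0858).

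Pros1, which encodes protein S, another TAM ligand and an anticoagulant made by liver and endothelium, was at 25.1, 16.5, 15.5 and 28.3 RPKM in PBS replicates 5 to 8. It was at 16.8, 26.5 and 22.0 RPKM in MC-21 replicates 2 to 4. The groups overlapped and the difference was 0.05 ± 0.25 (SE), with an adjusted p of 0.948 by limma. The ratio of Gas6 to Pros1 within a library, which does not depend on the scaling between libraries, was 0.617, 0.991, 0.870 and 0.880 in PBS replicates 5 to 8. In MC-21 replicates 2 to 4 it was 0.469, 0.348 and 0.346. The ratios did not overlap (two-sided exact permutation p = 0.0286, the smallest that 35 arrangements allow), but this ratio was chosen after the values of both genes were seen, and neither gene passed the adjusted test on its own, so it is given as a description.

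Mfge8, whose product bridges phosphatidylserine and αv integrins, was at 45.4, 23.4, 31.3 and 47.8 RPKM in PBS replicates 5 to 8 and at 23.4, 40.5 and 32.8 RPKM in MC-21 replicates 2 to 4. The groups covered nearly the same range. The difference was -0.17 ± 0.27 (SE), with an adjusted p of 0.808 by limma. Of the integrin chains that could receive it, Itgb5 was lower and Itgb3 overlapped between the groups, as described with the other receptors.

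Tgm2 encodes transglutaminase 2, a cross-linking enzyme of the extracellular matrix that also acts as a co-receptor of the β3 integrin in engulfment, and lies at chr2:157942138-157972172 on the minus strand. It was at 156, 339, 271 and 259 RPKM in PBS replicates 5 to 8 and at 686, 358 and 578 RPKM in MC-21 replicates 2 to 4. All MC-21 libraries were above all PBS libraries, but MC-21 replicate 3 exceeded PBS replicate 6 by little. The means were 256 ± 75.8 RPKM (SD, n = 4) and 541 ± 167 RPKM (SD, n = 3), a 2.11-fold higher mean. The difference was 1.08 ± 0.29 (SE), with a limma unadjusted p of 0.00412 and an adjusted p of 0.151, which did not pass the test. Tgm2 was at the 98.1st percentile of mean RPKM among all genes in PBS and at the 99.1st in MC-21 neutrophils.

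**Figure D2:**
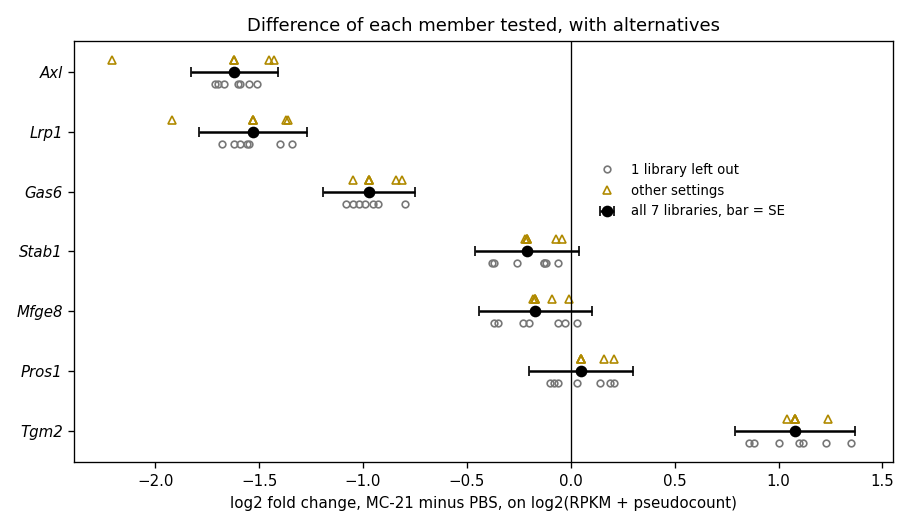
Difference of the 7 members tested (x axis, log2 fold change, MC-21 minus PBS). Black points with SE bars use all 7 libraries, open circles leave out 1 library each and triangles are other settings of the processing. Axl, Lrp1 and Gas6 stay below 0 and Tgm2 above 0 throughout (from -2.21 to -1.43 for Axl and from 0.86 to 1.35 for Tgm2), while values of Mfge8 and Pros1 lie on either side of 0.

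Per kilobase, the order of the members by mean over the 7 libraries was Tgm2 (378 RPKM), Mfge8 (35.0 RPKM), Pros1 (21.5 RPKM), Stab1 (16.3 RPKM), Gas6 (13.6 RPKM), Lrp1 (5.11 RPKM), Axl (3.64 RPKM), Timd4 (0.456 RPKM) and Mertk (0.167 RPKM). Neighbours in this order were compared within library by a two-sided exact sign-flip permutation test of log2(RPKM + 1), with adjustment over the 8 pairs. The order came from the means of these same libraries. The p-values therefore describe how steady it was between libraries and are no independent support for it. Stab1 was above Gas6 in 5 of 7 libraries (adjusted p = 0.141). It was above Gas6 in every MC-21 library and in PBS replicates 5 and 7, and below it in PBS replicates 6 and 8. The pooled test therefore does not describe the order within each group. Timd4 was above Mertk in 5 of 7 libraries, on a few reads each (adjusted p = 0.0893). Lrp1 was above Axl in 6 of 7 libraries (adjusted p = 0.0417). The other 5 pairs kept their order in 7 of 7 libraries, each with an adjusted p of 0.0250. Reads of a 3′ library do not increase with transcript length, and RPKM therefore understates long transcripts. In RPM, which is RPKM times the transcript length in kilobases, Stab1 (130 RPM) and Lrp1 (76.1 RPM) moved up to the second and the third place behind Tgm2 (1360 RPM), ahead of Mfge8 (74.3 RPM) and Pros1 (71.1 RPM). The place of Lrp1 rested on the PBS libraries, where it was at a mean of 112 RPM beside 78.6 RPM for Mfge8. In the MC-21 libraries it fell behind both, at 27.9 RPM beside 71.9 RPM for Pros1 and 68.5 RPM for Mfge8, a comparison added after the values were seen.

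Part of the monocyte and macrophage marker list was lower along with Axl, Lrp1 and Gas6. Of the 14 markers of that list, 5 were lower in MC-21 neutrophils by the adjusted p (Fcgr1, Ccr2, C1qa, C1qb and C1qc). By the same measure 0 were higher, and 0.427% of all genes tested were lower. The median difference of the list was -0.86 beside -0.15 over all genes. Fcgr1, the macrophage Fc receptor CD64, was at 6.15, 9.16, 11.9 and 13.3 RPKM in PBS replicates 5 to 8 and at 1.08, 1.46 and 1.39 RPKM in MC-21 replicates 2 to 4 (difference -2.22, adjusted p = 0.00851 by limma). Ccr2, the chemokine receptor to which MC-21 binds, was at 1.92 to 3.26 RPKM in PBS and at 0.390, 0 and 0.200 RPKM in MC-21 libraries, and reached the filter only through the PBS libraries. Cd14 went the other way (391 to 800 RPKM against 1071 to 1430 RPKM, difference 1.11, adjusted p = 0.0739) and made up 39.7% to 52.8% of the summed list in PBS and 74.4% to 82.3% in MC-21 libraries. The sum of all 14 was therefore 984 to 1515 RPKM in PBS and 1440 to 1738 RPKM in MC-21 libraries. Without Cd14, left out after its values were seen, the sum was 594, 691, 715 and 688 RPKM in PBS replicates 5 to 8 and 387, 369 and 308 RPKM in MC-21 replicates 2 to 4. Adgre1, the macrophage antigen F4/80, overlapped (7.36 to 21.9 RPKM and 3.88 to 22.2 RPKM). Csf1r, Ms4a7, Ly6c2 and Mrc1 overlapped as well. Cd68 did not (118 to 176 RPKM in PBS and 87.1 to 92.2 RPKM in MC-21 libraries, difference -0.73, adjusted p = 0.0786 by limma). Nor did Cx3cr1, which reached the filter only through the PBS libraries. Of the 14 markers, 8 were lower without overlap, against 10.2% of all genes, and 1 was higher, against 3.10%. Ly6c2 was at 35.9 to 60.0 RPKM in PBS and 39.2 to 43.9 RPKM in MC-21 libraries (difference -0.25, adjusted p = 0.577 by limma). The difference of Mrc1 was -0.18 (adjusted p = 0.883 by limma). No marker of the list was at 0 in every library, and its part in the lower Axl, Lrp1 and Gas6 was not tested.

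**Figure D3:**
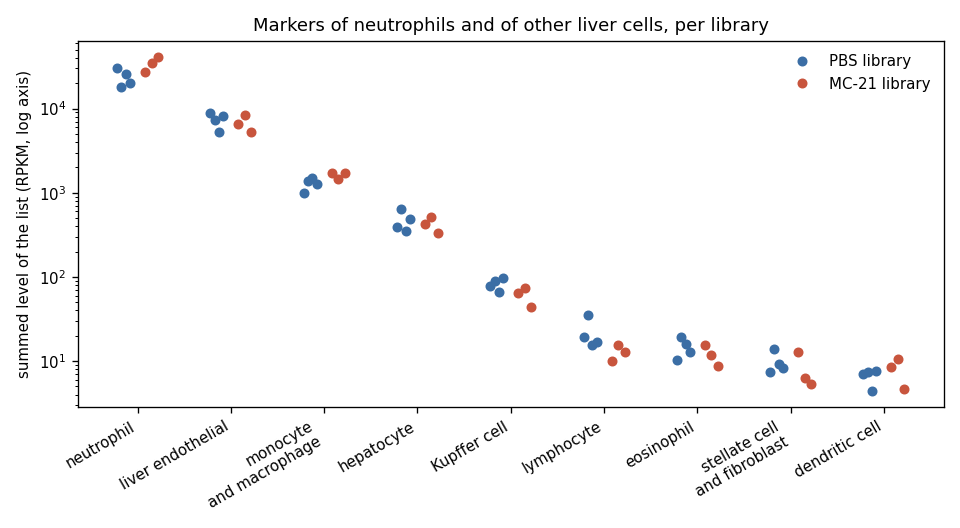
Summed RPKM of 9 marker lists (log axis) in each PBS library (blue) and each MC-21 library (red). Neutrophil markers are the most abundant in every library, liver endothelial markers come next at 5250 to 8844 RPKM, and lymphocyte, eosinophil, stellate cell and dendritic cell markers stay under 36 RPKM.

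Of the members that overlapped, Stab1, Mfge8 and Pros1 shared a pattern between libraries. Timd4 and Mertk rest on a few reads per library, which cannot show whether they follow it. Stab1, Mfge8 and Pros1 had the same 3 highest libraries, PBS replicates 5 and 8 and MC-21 replicate 3. So did 9 of the 13 liver endothelial markers, while 5.87% of all genes tested had these 3 libraries on top. Lyve1, Cdh5, Egfl7 and Fcgr2b of that list did not. Lyve1 was at 261, 90.4, 172 and 82.2 RPKM in PBS replicates 5 to 8 and at 92.7, 137 and 96.0 RPKM in MC-21 replicates 2 to 4. Of the other marker lists, Clec4f (Kupffer cell) and Apoc3 (hepatocyte) also had these libraries on top. Gpr182, an endothelial receptor of the sinusoids, was at 582, 317, 336 and 544 RPKM in PBS replicates 5 to 8 and at 318, 448 and 322 RPKM in MC-21 replicates 2 to 4. Eng, the endothelial TGF-β co-receptor endoglin, was at 490, 286, 333 and 492 RPKM and at 219, 349 and 233 RPKM in the same libraries. None of the 13 endothelial markers passed the adjusted test between the groups (limma, 1 with an unadjusted p under 0.05, beside 14.7% of all genes), a share that does not set them apart from other genes, and none was at 0. The 3 libraries were picked as those of Stab1. Axl, Lrp1, Gas6 and Tgm2 could not have them on top, since their groups did not overlap, so this comparison does not cover them. Within the groups, Axl and Gas6 were also highest in PBS replicate 8 and in MC-21 replicate 3. The part of endothelial RNA in the levels of Stab1, Mfge8 and Pros1 was not tested.

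**Figure D4:**
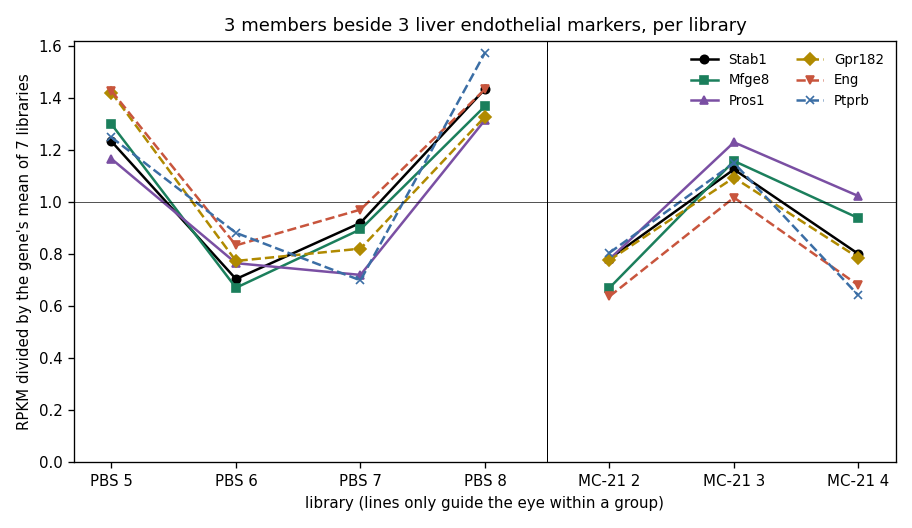
RPKM divided by the gene's own mean of the 7 libraries (y axis) for Stab1, Mfge8 and Pros1 (solid lines) and the endothelial markers Gpr182, Eng and Ptprb (dashed lines), by library (x axis). All 6 genes are highest in PBS replicates 5 and 8 within the PBS group and in MC-21 replicate 3 within the MC-21 group. The endothelial markers shown are among the 9 of 13 with these libraries on top.

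Among 22 other receptors of dying cells, 16 were tested, 1 was lower and 1 higher by the adjusted p, and the median difference was 0.22. Itgb5, the integrin β5 chain that pairs with αv, was at 5.73, 4.39, 12.4 and 10.2 RPKM in PBS replicates 5 to 8 and at 1.79, 0.957 and 1.64 RPKM in MC-21 replicates 2 to 4 (difference -1.82 ± 0.32 SE, adjusted p = 0.0459 by limma). Its groups did not overlap. Itgb3, the chain with which transglutaminase 2 acts, was at 6.96 to 24.8 RPKM in PBS and 13.4 to 23.0 RPKM in MC-21 libraries. Itgav, the αv chain itself, was at 0.693 to 1.79 RPKM and 0.255 to 1.15 RPKM and did not reach the filter. Olr1, the scavenger receptor LOX-1, was at 2.53, 9.93, 6.64 and 3.75 RPKM in PBS replicates 5 to 8 and at 34.0, 20.2 and 30.6 RPKM in MC-21 replicates 2 to 4 (difference 2.23 ± 0.37 SE, adjusted p = 0.0378 by limma). It was the receptor with the largest difference of the list, and its groups did not overlap. Cd300lf (0.91, adjusted p = 0.0837), Havcr2, which encodes Tim-3 (1.51, adjusted p = 0.160), and Cd14 had differences above 0 without overlap between the groups and did not pass the adjusted test. Cd93, a receptor linked to C1q, was lower in every MC-21 library (20.0 to 24.0 RPKM) than in any PBS library (27.6 to 45.6 RPKM), and did not pass either (-0.63, adjusted p = 0.205).

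Of 11 other bridging molecules in the table, 10 were tested and 3 were lower by the adjusted p, with a median difference of -0.43. They were the 3 chains of C1q, the complement component that also coats dying cells. C1qa was at 129, 99.1, 114 and 127 RPKM in PBS replicates 5 to 8 and at 54.3, 48.8 and 38.9 RPKM in MC-21 replicates 2 to 4 (difference -1.30, adjusted p = 0.0139 by limma). C1qb (-1.36, adjusted p = 0.00816) and C1qc (-1.13, adjusted p = 0.0287) had the same direction and no overlap. The C1q chains are also in the monocyte and macrophage list. Lgals3, which encodes galectin-3, a Mer ligand, was at 378 to 624 RPKM in PBS and at 277 to 279 RPKM in MC-21 libraries, a difference of -0.76 that did not pass (adjusted p = 0.0837). Calr, whose product calreticulin pairs with Lrp1, overlapped (228 to 410 RPKM and 241 to 387 RPKM).

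Among the regulators, Nr1h3, which encodes the oxysterol receptor LXRα that raises Mertk and Abca1 in macrophages, was at 6.04, 9.29, 11.3 and 11.3 RPKM in PBS replicates 5 to 8. It was at 1.65, 2.78 and 1.41 RPKM in MC-21 replicates 2 to 4, with no overlap (difference -1.82 ± 0.26 SE, adjusted p = 0.0172 by limma). It was the 1 gene of the 8 nuclear receptors and regulators tested that passed, and their median difference was -0.40. Of 9 partners of the members tested, F13a1, the transglutaminase factor XIII-A of monocytes, was the 1 that passed (2.06 to 5.27 RPKM in PBS and 0.183 to 0.428 RPKM in MC-21 libraries, difference -1.63, adjusted p = 0.0378), and it reached the filter only through the PBS libraries. Its difference was opposite in sign to that of Tgm2, the transglutaminase among the members. Fn1, fibronectin, a substrate of transglutaminases, had a difference of -1.76 (adjusted p = 0.0697) and Socs1, which is induced by TAM signalling, a difference of 1.44 (adjusted p = 0.155).

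The lists of engulfment machinery, digestion, eat-me and find-me signals gave no gene with an adjusted p under 0.05. With 0.625% of all genes called, this does not set these lists apart. It held for the 16 genes of the engulfment machinery tested (median difference 0.02, 3 with an unadjusted limma p under 0.05, all lower), the 12 of digestion (median -0.25, 1 lower), the 10 of eat-me and do-not-eat-me signals (median -0.06, 1 higher) and the 7 of find-me signals and their receptors (median -0.34, 3 lower). Over all genes tested, 11.2% were lower and 3.59% higher by an unadjusted p under 0.05. Of the 3 find-me genes, Cx3cr1 (1.01 to 3.81 RPKM in PBS and 0.448 to 0.767 RPKM in MC-21 libraries) reached the filter only through the PBS libraries. Bcar1, an adaptor of the engulfment pathway, was at 21.8 to 31.8 RPKM in PBS and 15.4 to 17.4 RPKM in MC-21 libraries (-0.65, adjusted p = 0.145). S1pr2, a receptor for the find-me lipid sphingosine-1-phosphate, was at 3.63 to 6.28 RPKM and 1.56 to 1.92 RPKM (-1.09, adjusted p = 0.0618). Cd47, the do-not-eat-me signal, was at 54.2 to 89.4 RPKM and 97.5 to 155 RPKM (0.66, adjusted p = 0.235). The calls of the other genes depended on the processing to different degrees. The adjusted p stayed under 0.05 in 13 of 14 alternatives for C1qb (0.00595 to 0.0813), in 12 of 14 for Fcgr1 (0.0038 to 0.117), in 10 of 14 for C1qa (0.00959 to 0.115), in 8 of 14 for Nr1h3 (0.0135 to 0.177) and in 7 of 14 for C1qc (0.0202 to 0.177). It did so in 6 of 14 for Olr1 (0.0144 to 0.241), in 3 of 14 for Itgb5 (0.0254 to 0.246), in 5 of 13 for Ccr2 (0.0222 to 0.115) and in 4 of 13 for F13a1 (0.0290 to 0.196). Olr1, Nr1h3, Fn1, Socs1, Fcgr1, Cd300lf and the C1q genes were also named by the study from these libraries.

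**Figure D5:**
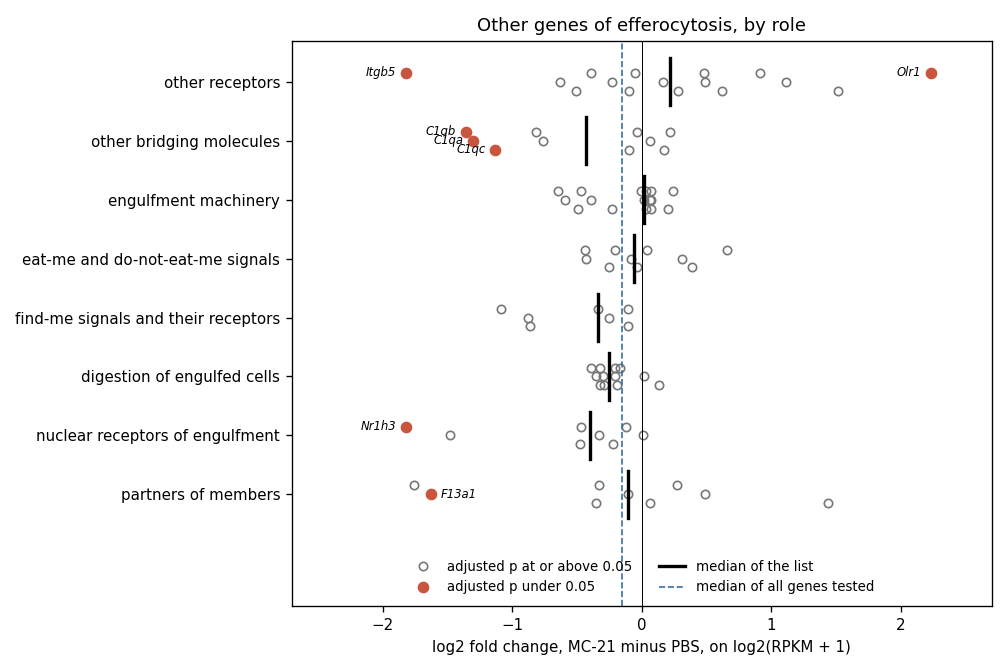
Difference (x axis, log2 fold change, MC-21 minus PBS) of each tested gene in 8 lists of other efferocytosis genes, 1 row per list. Filled points have an adjusted p under 0.05, black bars are the median of each list and the dashed line is the median of all genes tested, -0.15. Olr1 alone is filled to the right, and Itgb5, C1qa, C1qb, C1qc, Nr1h3 and F13a1 are filled to the left.

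The genes most like the 4 members with an unadjusted p under 0.05 were sought by the root mean square difference of centred log2(RPKM + 1) over the 7 libraries. Centring was over both groups together, so genes with a like group difference come out near by construction. The measure therefore does not show likeness beyond that difference. For Axl they were Pcdhgb2 (0.18), Nr1h3 (0.24) and C1qa (0.25), beside a median of 0.80 over all genes. Pcdhgb2 shares its last exons with the other genes of its protocadherin cluster, so its 3′ reads cannot be assigned to it with certainty. For Lrp1 they included Ccr7 (0.24) and Ctsc (0.25), beside a median of 0.81. For Gas6 they were Gm13889 (0.10), Hspa12a (0.16) and Nudt13 (0.17), beside 0.54. For Tgm2 they were Il1r1 (0.17), Fabp5 (0.19) and Bhlhe40 (0.20), beside 0.78. Nr1h3 and C1qa, near Axl, are thus genes of the process lists already described.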

How the data were processed

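Neutrophils from 7 livers were profiled by 3′ RNA-seq (an Illumina NextSeq by the study's methods). The authors mapped reads to mm9 with HISAT 0.1.5 and deposited RPKM values per gene from Partek Genomics Suite 6.6, the names and versions being those of the submitters' processing notes. The annotation and the handling of multiply mapped reads are not given in the sources used here. Depth was recovered from the steps of low RPKM values: 77.8% of 3071 values lay within 0.1 of a whole read, where 20% would by chance. A count of 0 allows up to 3 reads, which covers counting error only.

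RPKM values are not counts, so no count model was run. Limma 3.58.1 (lmFit, eBayes with a trend, R 4.3.3) was fitted to log2(RPKM + 1) of the 9594 genes whose mean over the libraries reached 1 RPKM, without scaling between libraries. Members under that mean had a two-sided exact permutation test over the 35 arrangements into 4 and 3 libraries. Numbers 5 to 8 and 2 to 4 are separate mice, and no batch is given in the labels.

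Named genes were all members, list genes with an adjusted p under 0.05 and up to 4 more per list with the smallest unadjusted p under 0.05, marker genes, and the 3 genes most like a member. Tyro3, Itgav, Itgb3 and Calr, which act with members, fall outside this rule and were added after their values were seen. The results of 1 gene are not reported here, and it stayed in the fits and counts. The members and lists were chosen with earlier results of these data known. Edil3, Gulp1, Epx, Prg2 and Il5ra, which belong to lists, are not in the table used here. Positions are mm9 (NCBIM37), and promoters RefSeq GRCm38.p6. The alternatives were a pseudocount of 0.1 RPKM, no filter, a minimum mean of 5 RPKM, quantile normalization, median centring, limma without a trend, each gene's own variance, and leaving out each library. The Gas6 to Pros1 ratio, the sum without Cd14, RPM by group and the shared highest libraries were added after the data were seen. Tables were made with Python 3.11.15, numpy 2.4.6 and pandas 2.3.3, plots with matplotlib 3.10.9.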

Additional observations from a re-analysis of the deposited data

How the results depend on the processing

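No paired analysis was possible because the replicate numbers of the groups (5 to 8 and 2 to 4) name different mice and share no number. The 2 members with an adjusted p under 0.05, Axl and Lrp1, were 0 without a filter on low values and 0 with each gene's own variance, 1 with a mean of at least 5 RPKM (Lrp1, as Axl was not tested there), 1 with quantile normalization (Axl) and 1 with median centring (Axl). Leaving out 1 library each gave between 0 and 2. Over all genes tested, 60 passed; 6 passed without a filter, 4 with each gene's own variance, and between 9 and 102 when 1 library was left out, the highest without PBS replicate 6 and the lowest without PBS replicate 8. The adjusted p of Axl lay between 0.0154 and 0.0927 over 13 alternatives and that of Lrp1 between 0.0354 and 0.22 over 14, with no change of sign. Gas6 (0.0708 to 0.258) and Tgm2 (0.0934 to 0.363) passed under none of 14. With 1 library left out, the difference of Pros1 lay between -0.10 and 0.21, that of Mfge8 between -0.37 and 0.03 and that of Mertk between -0.18 and 0.04. That of Pros1 turned to -0.06 without PBS replicate 6, -0.08 without PBS replicate 7 and -0.10 without MC-21 replicate 3, that of Mfge8 to 0.03 without MC-21 replicate 2, and that of Mertk to 0.04 without PBS replicate 6 and to 0.04 without MC-21 replicate 4. Of 115 values of members under the alternatives, 93 kept their sign and their side of the threshold. The 16 that moved above the threshold all belonged to Axl and Lrp1. The adjusted p stayed under 0.05 in 7 of 13 alternatives for Axl and in 4 of 14 for Lrp1. The cause of these shifts was not tested. In the order of the levels, 8 neighbouring pairs became 6 in RPM and 7 with the mean over PBS alone. In RPM over each group alone, added after the data were seen, they became 6 in PBS and 5 in MC-21 libraries. MC-21 replicate 3 has the fewest reads. Mertk and Timd4 rest on a few reads at most in every library, so they can show neither presence of a difference nor its absence.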
